A study of Homo sapiens with 6 samples.

Results

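Collagen genes are described here in PANC-1 cells with and without part of the DKK1 super-enhancer. The members are the rows of the deposited gene table whose symbol is COL, a type number, A and a chain number, and this name rule found 44 of the 62703 listed genes. A minimum on counts left 28 of the 44 among the 15179 genes that could be tested.

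PANC-1 is an established line of human pancreatic ductal carcinoma, grown in DMEM with fetal bovine serum and antibiotics, and RNA was sequenced from 3 samples in each of 2 groups. The control samples are PANC-1 of genotype WT, DKK1-SE+/+. The deletion samples are PANC-1 of genotype DKK1-SE-/-, in which CRISPR-Cas9 removed e1, a core component enhancer of the DKK1 super-enhancer on chromosome 10, in homozygous form. The study obtained 1 DKK1-SE-/- clone, so the 3 deletion samples are replicates of 1 clone, the deletion and what else sets that clone apart cannot be told apart, and p-values measure only the spread between these samples. Whether the control cells were cloned is not given in the sources used here. Values of a group are given below in the order of replicates 1, 2 and 3, and differences are deletion over control.

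The summed expected counts, estimated reads per gene, were 21822314, 16475810 and 18803154 in the control samples and 17359835, 20098086 and 17804764 in the deletion samples. At these depths a floor of 3 counts per library corresponds to 0.137 to 0.182 CPM (counts-per-million), and such floors and the intervals given below cover counting error only. DKK1, the secreted Wnt antagonist for which the enhancer is named, had 229, 246 and 199 transcripts-per-million (TPM) in the control samples and 66.8, 79.8 and 82.7 in the deletion samples. All deletion samples lay below all control samples, and the log2 fold change of DKK1 was estimated at -1.45 (standard error 0.112, adjusted p = 6.16e-06).

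Collagens are secreted or membrane-bound proteins whose chains wind into a triple helix, with a small residue, glycine, at every turn of the repeat. Fibrillar collagens build the tensile fibrils of connective tissue, network collagens form basement membranes, FACIT collagens (fibril-associated collagens with interrupted triple helices) decorate fibrils, the anchoring collagen ties basement membrane to the matrix beneath, and transmembrane collagens sit in the cell surface. Pancreatic ductal carcinoma is known for a dense collagen-rich stroma, most of it laid down by fibroblasts and stellate cells, while the carcinoma cells make a collagen repertoire of their own.

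The comparison asks how the collagen repertoire of these cells differs between the genotypes. Collagens moved in both directions, by large amounts, and within the same class. In the fit of counts, COL1A1, COL7A1, COL16A1 and COL22A1 fell by 8.31-fold to 30.9-fold. COL5A1, COL13A1, COL6A3 and COL11A1 fell by 2.10-fold to 2.46-fold there. COL5A2, COL3A1, COL12A1 and COL6A2 rose by 2.46-fold to 3.76-fold, and COL2A1 rose from a few counts. These sizes depend on the scale: on mean TPM COL16A1 fell by 4.85-fold, and the log2 ratio of COL6A3 was -1.99. COL18A1 was the most abundant collagen on the TPM scale in all 6 samples. On that scale COL1A1 was second in each control sample and COL5A2 was second in each deletion sample. In counts-per-million COL5A2 stood above COL18A1 in deletion replicate 3, at 834 against 691.

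Of the 28 tested collagens, 16 were called, which here means an adjusted p under 0.05 in edgeR's quasi-likelihood test with Benjamini-Hochberg adjustment over all 15179 genes, and 39.3% of all tested genes were called. Higher in the deletion samples were 7 collagens, beside 19.8% of all tested genes, and lower were 9, beside 19.5%. Past the study's limits, an unadjusted p under 0.05 and a fold change of at least 1.2 taken on the log2 scale, were 13 collagens, beside 8.66% of all tested genes. These were 5 higher ones, beside 4.96%, and 8 lower ones, beside 3.7%, and without deletion replicate 2 the lower ones numbered 5, beside 621 of all 15519 genes tested there. In limma on log2(TPM + 1) 7 collagens were past these limits, beside 3.37% of all tested genes, and 1 of them was higher, beside 1.15%. On log2(TPM + 0.1) they were 12, beside 8.14%, and 5 of them were higher, beside 3.58%. In limma with no minimum on values 4 collagens were called higher, beside 2.97% of the 31101 genes tested there. TPM of the groups did not overlap for 17 of the 28 collagens, beside 44.2% of all tested genes. The median log2 fold change was -0.10 over the 28 collagens and 0.03 over all tested genes, and the median absolute log2 fold change was 1.05 and 0.38. COL2A1 and COL5A3 passed the minimum on counts only through the deletion samples and COL22A1 only through the control samples, so these 3 had to differ in level to be tested in this way.

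**Figure D1:**
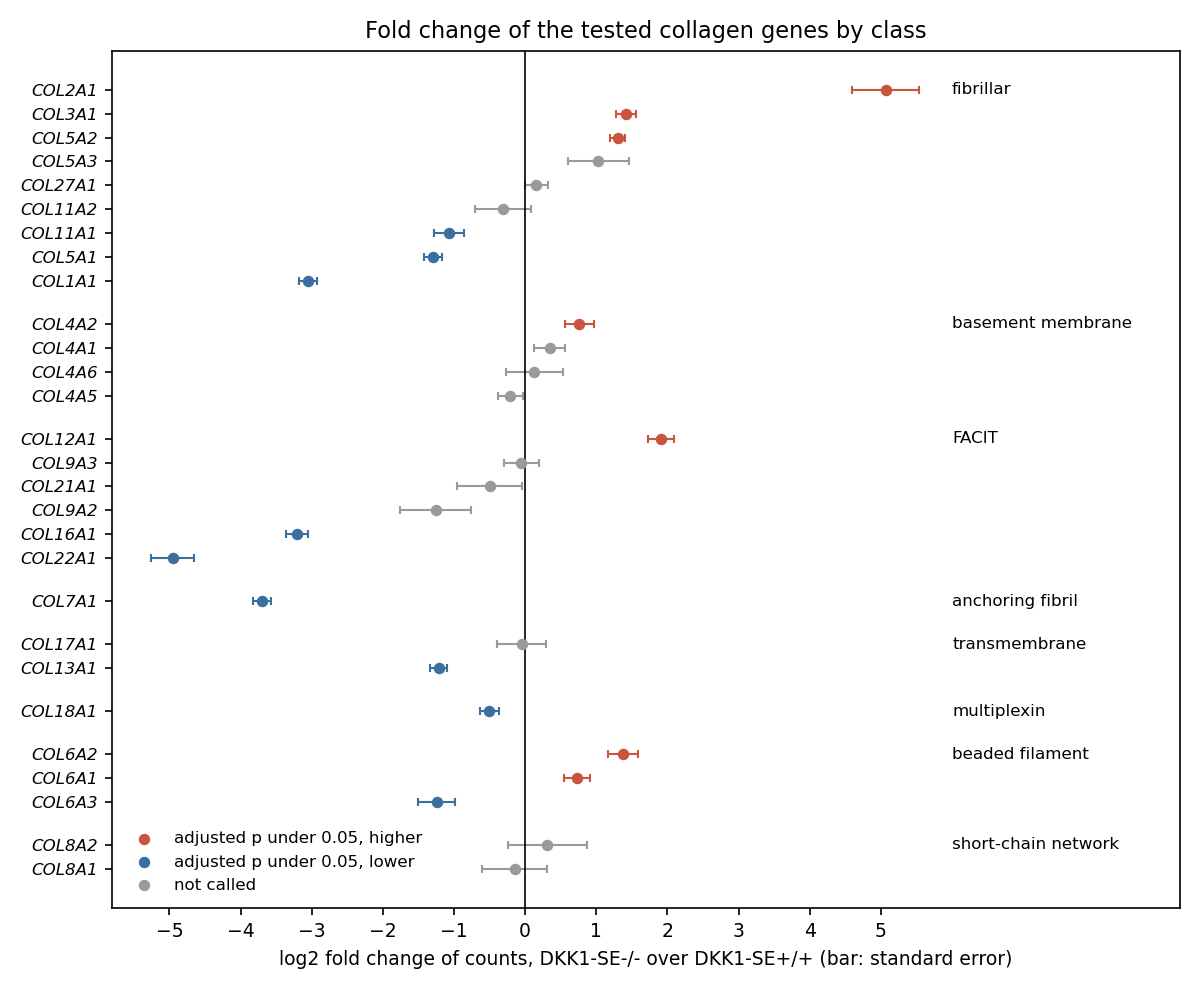
Log2 fold change of counts, deletion over control, for the 28 tested collagen genes by class. Bars are 1 standard error, derived from the fold change and F statistic of the fit over 3 samples a group. Points run from -4.95 (COL22A1) to 5.07 (COL2A1), and the fibrillar, FACIT and beaded filament classes hold called genes on both sides of 0.

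The 16 collagens that were not tested stayed at or below 0.99 TPM and 12 counts in every sample. COL1A2, the partner chain of COL1A1 in type I collagen, and COL9A1 had 0 counts in all 6 samples. COL14A1, a FACIT collagen, had 0 counts in each control sample and 5, 12 and 6 in the deletion samples, which is at least 8.33-fold higher against a floor of 3 counts over the control group. COL25A1, a transmembrane collagen, had 0 counts in each control sample and 3, 6 and 8 in the deletion samples, at least 6.16-fold higher against the same floor. This floor is set over the control group as a whole, not per library as above, and the deletion counts are taken without their own counting error. With a floor per library the folds would be smaller. COL14A1 and COL25A1 were called only in the fit with no minimum on counts. The other untested members are COL24A1, COL4A3, COL4A4, COL19A1, COL20A1, COL23A1, COL15A1, COL6A5, COL6A6, COL10A1, COL26A1 and COL28A1.

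Stretches before the start sites of collagens that rose or fell are shown because common promoter letters can be read in them beside genes that moved apart. RefSeq promoter entries (GRCh38.p14) matched 32 of the 44 collagens and 20 of the 28 tested ones. The called COL1A1, COL22A1, COL2A1, COL5A2, COL3A1 and COL6A1 had no entry, so they are in no stretch or motif count here. Of the called ones with a stretch free of annotated untranslated regions of coding transcripts, those with the largest falls and rises are printed. The first is of COL7A1, chr3:48595330-48595579 on the minus strand, then COL11A1, chr1:103108523-103108772, minus strand, within a longer COL11A1 annotation but in no exon. Next come the risers COL12A1, chr6:75206054-75206303, minus strand, with 214 bases in an exon of a noncoding COL12A1 transcript, and COL6A2, chr21:46097862-46098111, plus strand. The last is the stretch between the divergent COL4A1 and COL4A2 start sites, chr13:110307158-110307257 on the plus strand, 100 of the 126 bases that lie between the starts, inside the GENCODE annotation of COL4A2, whose annotation overlaps that of COL4A1. Capitals mark matches on either strand to GGGCGG, the letters of the GC box, to the TATA box letters TATAAA, and to the letters CCAAT.
COL7A1: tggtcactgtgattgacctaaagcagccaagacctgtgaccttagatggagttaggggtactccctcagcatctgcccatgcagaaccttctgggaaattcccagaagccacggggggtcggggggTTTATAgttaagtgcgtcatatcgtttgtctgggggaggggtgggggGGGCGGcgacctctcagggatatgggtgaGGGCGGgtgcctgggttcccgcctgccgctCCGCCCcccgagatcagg
COL11A1: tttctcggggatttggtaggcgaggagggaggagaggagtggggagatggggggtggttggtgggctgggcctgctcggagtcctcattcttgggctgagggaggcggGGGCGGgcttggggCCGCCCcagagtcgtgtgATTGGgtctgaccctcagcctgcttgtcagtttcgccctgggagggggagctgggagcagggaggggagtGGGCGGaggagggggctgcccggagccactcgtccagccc
COL12A1: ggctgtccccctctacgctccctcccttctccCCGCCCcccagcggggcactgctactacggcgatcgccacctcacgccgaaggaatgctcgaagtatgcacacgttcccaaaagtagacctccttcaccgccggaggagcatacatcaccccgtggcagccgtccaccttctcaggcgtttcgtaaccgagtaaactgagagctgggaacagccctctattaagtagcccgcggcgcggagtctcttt
COL6A2: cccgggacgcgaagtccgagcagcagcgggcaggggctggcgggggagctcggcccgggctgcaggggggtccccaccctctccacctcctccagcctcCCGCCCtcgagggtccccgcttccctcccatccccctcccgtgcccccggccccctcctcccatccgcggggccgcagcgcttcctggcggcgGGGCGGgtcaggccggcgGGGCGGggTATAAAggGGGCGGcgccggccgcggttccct
COL4A1 to COL4A2: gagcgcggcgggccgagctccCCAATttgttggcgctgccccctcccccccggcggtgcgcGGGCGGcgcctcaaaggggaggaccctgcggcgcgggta
By gene, with a match in the 250 bases of any of its entries, GGGCGG stood upstream of 16 of the 20 tested collagens with an entry and of 46.2% of the 27305 genes in the promoter table. The GC content of the entries had a median of 64.4% for these collagens and 58% for the whole table. TATAAA stood upstream of 5 of the 20 and of 13.0% of all genes. It was found for 3 of the 7 called lower, COL7A1 among them, for 1 of the 3 called higher, COL6A2, and for 1 of the 10 not called. CCAAT stood upstream of 8 of the 20 and of 37.0% of all genes. TGANTCA, the letters bound by AP-1, stood upstream of 0 of the 20 and of 8.06% of all genes. Both strands were searched, no motif holds another, and a match or its absence in this window says nothing of binding.

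Of the 11 fibrillar collagens 9 were tested, with 3 called higher, 3 called lower and 3 not called. COL1A1 (ENSG00000108821, chromosome 17, 50184101 to 50201632 on the minus strand) encodes the major chain of type I collagen. It stood at 91.0, 102 and 103 TPM in the control samples and at 11.8, 8.97 and 16.1 TPM in the deletion samples. Every deletion sample was far below every control sample, with group means of 98.7 ± 6.72 and 12.3 ± 3.61 TPM (SD, n = 3 each). The log2 fold change amounted to -3.06 (standard error 0.124, adjusted p = 1.35e-07). With COL1A2 at 0 counts throughout, the type I transcripts detected at this depth came from COL1A1 alone, in both groups. In bulk RNA, fewer cells that express a gene and less RNA per cell cannot be told apart.

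COL5A1 (ENSG00000130635, chromosome 9, 134641803 to 134844843, plus strand) and COL5A2 (ENSG00000204262, chromosome 2, 189031898 to 189225312, minus strand) encode the chains of the common type V heterotrimer, which sets the diameter of type I fibrils. For COL5A1 the control samples had 27.9, 29.2 and 32.2 TPM and the deletion samples 12.6, 11.0 and 10.7 TPM. For COL5A2 the control samples had 62.05, 62.1 and 61.2 TPM and the deletion samples 134, 127 and 171 TPM. The partner chains thus went opposite ways, with all deletion samples below the controls for COL5A1 and all above them for COL5A2. COL5A1 fell by 1.30 on the log2 scale (standard error 0.128, adjusted p = 3.51e-05). COL5A2 rose by 1.30 on the log2 scale (standard error 0.104, adjusted p = 7.38e-06). COL5A3, the chain of a rarer type V form, was near the floor, with 4 to 8 counts in the control samples and 10 to 12 in the deletion samples, and was not called (log2 fold change 1.03, adjusted p = 0.0813).

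COL3A1 (ENSG00000168542, chromosome 2, 188974373 to 189012746, plus strand), the single chain of type III collagen, is the neighbour of COL5A2: the gene ends face each other across 19.2 kb. Its level was 1.69, 1.54 and 1.50 TPM in the control samples and 3.62, 3.61 and 4.07 TPM in the deletion samples. Both neighbours were therefore higher in every deletion sample, though the TPM level of COL3A1 was far lower than that of COL5A2. For COL3A1 the log2 fold change came to 1.42 (standard error 0.141, adjusted p = 3.68e-05). The 26 other tested genes within 5 Mb of this pair had a median log2 fold change of -0.46.

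COL2A1 (ENSG00000139219, chromosome 12, 47972967 to 48004554, minus strand), the chain of cartilage type II collagen, had 0.07, 0 and 0.31 TPM in the control samples and 2.57, 1.46 and 1.28 TPM in the deletion samples. The gene was close to undetected in the controls and low but present in each deletion sample. Its counts were 4, 0 and 4 against 98, 81 and 75, a ratio of summed counts of 34.5 after scaling for depth (95% exact interval 17.2 to 80.8). The log2 fold change was estimated at 5.07 (standard error 0.476, adjusted p = 2.44e-05), and on log2(TPM + 1) it was 1.28. The log2 ratio of mean TPM was 3.80. COL11A1, a minor fibrillar chain that co-assembles with types II and V, had 2.84, 2.73 and 2.30 TPM in the control samples and 1.09, 0.78 and 1.52 TPM in the deletion samples. It was lower in all deletion samples and fell by 1.07 on the log2 scale (standard error 0.212, adjusted p = 0.00264), and the call was lost in the limma fit with no minimum on values (adjusted p = 0.0912). COL11A2 (log2 fold change -0.31) and COL27A1 (0.16) were not called.

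**Figure D2:**
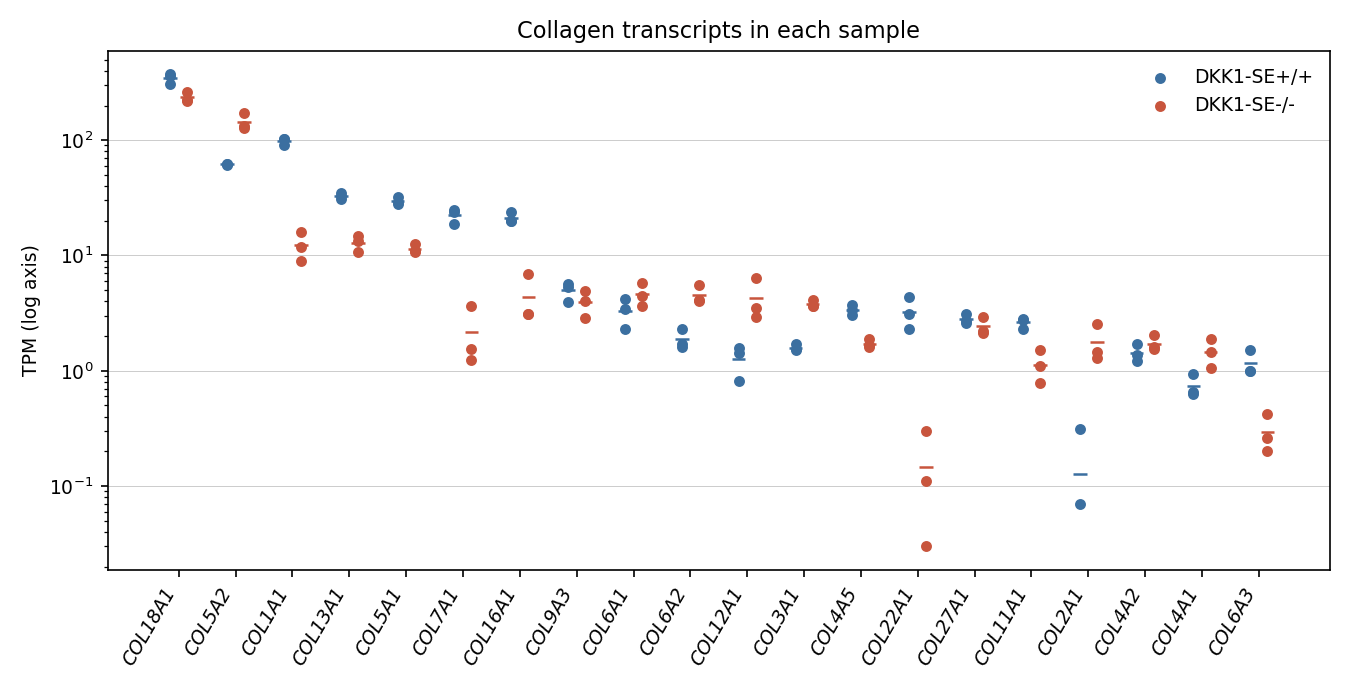
TPM on a log axis of the tested collagen genes with a mean of at least 1 TPM in either group, with a point per sample and a line at the mean of each group of 3. COL18A1 is the highest in all samples, COL1A1 is second in the control samples and COL5A2 in the deletion samples, and the control sample of COL2A1 at 0 TPM cannot be drawn on this axis.

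Of the 6 basement membrane collagens 4 were tested and 1 was called. COL4A1 and COL4A2 encode the chains of the ubiquitous type IV network and are transcribed away from each other on chromosome 13. COL4A1 had 0.94, 0.65 and 0.63 TPM in the control samples and 1.88, 1.06 and 1.45 TPM in the deletion samples. The groups did not overlap in TPM, but the counts gave a log2 fold change of 0.34 (standard error 0.215, adjusted p = 0.229) and the gene was not called, while the log2 ratio of mean TPM was 0.98. COL4A2 had 1.38, 1.22 and 1.70 TPM in the control samples and 1.61, 2.03 and 1.53 TPM in the deletion samples. Here the groups overlapped in TPM while the counts were called higher, with a log2 fold change of 0.76 (standard error 0.202, adjusted p = 0.0123). The call of COL4A2 was lost in each of the 3 limma fits on TPM (adjusted p from 0.459 to 0.66) and without control replicate 1 (adjusted p = 0.0515).

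COL4A5 and COL4A6, the type IV chains of smooth muscle and epithelial basement membranes, are a second divergent pair, 341 bases apart on the X chromosome. COL4A5 had 3.38, 3.02 and 3.73 TPM in the control samples and 1.88, 1.66 and 1.61 TPM in the deletion samples. TPM was lower in every deletion sample, yet the log2 fold change of counts amounted to -0.21 (standard error 0.176, adjusted p = 0.37), while on log2(TPM + 1) it was -0.69 (adjusted p = 0.0126 in limma, and 0.0742 with no minimum on values). COL4A6 was not called (log2 fold change 0.13, adjusted p = 0.819), and its sign turned in each fit on TPM. Counts and TPM thus give different pictures of type IV collagen. The TPM given per count differed by over 2-fold between samples in 11 of the 28 tested collagens, with a median ratio of highest to lowest of 1.78 over the 28 and 1.41 over all tested genes that have a count in every sample. The effective lengths that the authors used for TPM are not given in the sources used here, and their part in the COL4A5 and COL4A2 results was not tested.

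Among the 10 FACIT collagens 6 were tested, with 1 called higher and 2 called lower. COL16A1 (ENSG00000084636, chromosome 1, 31652263 to 31704319, minus strand), which associates with fibrils and with fibrillin microfibrils, had 19.8, 23.8 and 20.01 TPM in the control samples and 6.92, 3.10 and 3.11 TPM in the deletion samples. The deletion samples were all far below the controls, with counts of 98, 108 and 81 against 1013, 867 and 984. The log2 fold change of counts came to -3.21 (standard error 0.149, adjusted p = 1.73e-07) and the log2 ratio of mean TPM was -2.28.

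COL22A1 (ENSG00000169436, chromosome 8), a collagen known from tissue junctions such as that of muscle and tendon, had 3.10, 4.37 and 2.32 TPM in the control samples and 0.30, 0.11 and 0.03 TPM in the deletion samples. It was low in the controls and close to undetected in the deletion samples, with counts of 160, 162 and 155 against 6, 5 and 3. Scaled for depth the summed counts differed by 31.4-fold (95% exact interval 18.5 to 57.8). In edgeR's fit of counts this was the largest fall among the tested collagens, with a log2 fold change of -4.95 (standard error 0.302, adjusted p = 1.13e-06). On log2(TPM + 1) the value was -1.87, a smaller fall than those of COL7A1 (-2.97), COL1A1 (-2.94) and COL16A1 (-2.12), while on log2(TPM + 0.1) it was -3.88 and as a log2 ratio of mean TPM -4.48, again larger than theirs. The 45 other tested genes within 5 Mb of COL22A1 had a median log2 fold change of 0.82, the highest median around any tested collagen.

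COL12A1 (ENSG00000111799, chromosome 6, 75084326 to 75206267, minus strand) binds type I fibrils and is the 1 tested FACIT collagen that was called higher. Its level was 0.82, 1.42 and 1.59 TPM in the control samples and 2.90, 3.50 and 6.35 TPM in the deletion samples. All deletion samples exceeded all controls, and replicate 3 of the deletion was the highest. The log2 fold change was estimated at 1.91 (standard error 0.180, adjusted p = 2.49e-05), and the call was lost in the limma fit with no minimum on values (adjusted p = 0.0739). COL9A2, a chain of cartilage type IX collagen, had 0.70, 1.13 and 0.26 TPM in the control samples and 0.13, 0.22 and 0.44 TPM in the deletion samples. The groups overlapped: COL9A2 was past the study's limits (log2 fold change -1.26, standard error 0.499) but not called (adjusted p = 0.0666), and without deletion replicate 3 its log2 fold change was -1.76 and its adjusted p 0.0316. With the GC-content offset its adjusted p was 0.0353, and 0.0605 with the replicate block as well. Without deletion replicate 2 its log2 fold change was -0.96 (adjusted p = 0.222). COL9A2 was not past the study's limits there, in DESeq2 or in the limma fits on TPM. The same held without control replicate 1, without control replicate 2 and without deletion replicate 1. COL9A3 (log2 fold change -0.05) and COL21A1 (-0.50, but 0.19 on log2(TPM + 1)) were not called.

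COL7A1 (ENSG00000114270, chromosome 3, 48564073 to 48595329, minus strand) is the only anchoring fibril collagen and forms the loops that fasten epithelial basement membrane to the stroma. TPM of COL7A1 was 24.9, 18.7 and 23.8 in the control samples and 1.55, 3.67 and 1.23 in the deletion samples. Every deletion sample held a small fraction of the level of any control, with group means of 22.5 ± 3.31 and 2.15 ± 1.33 TPM (SD, n = 3 each). The log2 fold change amounted to -3.69 (standard error 0.127, adjusted p = 6.08e-08). The log2 ratio of mean TPM was -3.39, and -4.01 without deletion replicate 2. In counts, the median log2 fold change of the 161 other tested genes within 5 Mb was -0.35. The stretch printed for COL7A1 holds TATAAA 1 time and GGGCGG 3 times.

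COL13A1 (ENSG00000197467, chromosome 10, 69801880 to 69964275, plus strand), a transmembrane collagen of adhesion sites, had 35.1, 30.7 and 32.6 TPM in the control samples and 14.7, 10.8 and 13.3 TPM in the deletion samples. The groups were well apart, and the log2 fold change came to -1.22 (standard error 0.125, adjusted p = 4.52e-05). It lies on the chromosome of DKK1 and the deleted enhancer, and the 82 other tested genes within 5 Mb of it had a median log2 fold change of 0.15. COL17A1, the transmembrane collagen of hemidesmosomes and the other of the 2 tested transmembrane members, was under 2 TPM in all samples and not called (log2 fold change -0.05).

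COL18A1 (ENSG00000182871, chromosome 21, 45405165 to 45513720, plus strand) is a multiplexin, a basement membrane proteoglycan whose end fragment is endostatin. Its level was 309, 363 and 373 TPM in the control samples and 261, 218 and 225 TPM in the deletion samples. The lowest control was above the highest deletion sample, with a log2 fold change of -0.50 (standard error 0.135, adjusted p = 0.0129), and without control replicate 3 the adjusted p was 0.0588. With the GC-content offset the log2 fold change was -0.92 (adjusted p = 5.52e-06). COL18A1 overlaps SLC19A1 on the opposite strand, whose mean TPM went from 39.7 to 22.9. The strand setting of the authors' counting is not given in the sources used here, so the share of such overlapping transcripts in a count was not tested.

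The beaded filament collagens of type VI bridge cells and matrix, and all 3 tested chains of the 5 listed were called. COL6A2 (ENSG00000142173, chromosome 21, 46098112 to 46132848, plus strand) had 1.69, 1.62 and 2.32 TPM in the control samples and 5.54, 3.99 and 4.14 TPM in the deletion samples. It was higher in each deletion sample, by 1.38 on the log2 scale (standard error 0.213, adjusted p = 6.20e-04), and its printed stretch holds TATAAA 1 time and GGGCGG 4 times. COL6A1, which lies 93.1 kb before it, had 2.32, 3.40 and 4.16 TPM in the control samples and 5.73, 3.65 and 4.47 TPM in the deletion samples. For COL6A1 the groups overlapped in TPM, while the counts gave a log2 fold change of 0.73 (standard error 0.188, adjusted p = 0.0108). Its call was lost in the limma fits on TPM (adjusted p from 0.217 to 0.408), with the GC-content offset (0.0813, and 0.0743 with the replicate block) and without control replicate 1 (0.0636). COL6A3 (ENSG00000163359, chromosome 2, 237324003 to 237414328, minus strand), the longest chain of the trimer, had 0.99, 0.99 and 1.51 TPM in the control samples and 0.26, 0.20 and 0.42 TPM in the deletion samples. It was lower in every deletion sample, with a log2 fold change of -1.24 (standard error 0.259, adjusted p = 0.00347) and a log2 ratio of mean TPM of -1.99. In the limma fit with no minimum on values its adjusted p was 0.0529. The short-chain collagens COL8A1 (log2 fold change -0.15) and COL8A2 (0.31) were not called.

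Chains that assemble in 1 trimer can be compared within a sample as ratios of TPM. COL5A1 over COL5A2 was 0.45, 0.471 and 0.527 in the control samples and 0.0944, 0.0865 and 0.0626 in the deletion samples. The ratio was lower in every deletion sample, by 6.02-fold on the mean of the log2 ratios. COL6A1 over COL6A3 was 2.34, 3.43 and 2.75 in the control samples and 22.04, 18.3 and 10.6 in the deletion samples. That ratio was higher in every deletion sample, by 5.78-fold. COL6A1 over COL6A2 was 1.37, 2.10 and 1.79 in the control samples and 1.03, 0.915 and 1.08 in the deletion samples, and COL4A5 over COL4A6 was 16.1, 8.88 and 11.3 against 5.22, 7.22 and 5.75. Both TPM ratios were lower in each deletion sample, by 1.72-fold and 1.95-fold, but in counts-per-million COL4A5 over COL4A6 overlapped, at 7.35, 5.17 and 7.48 against 3.94, 9.07 and 4.68. COL4A1 over COL4A2 was 0.681, 0.533 and 0.371 against 1.17, 0.522 and 0.948, with overlapping groups, and its difference turned sign on counts-per-million. Two-sided exact permutation tests over the 3 and 3 samples gave p = 0.1 for the first 4 pairs, the smallest p this design allows, and p = 0.3 for COL4A1 over COL4A2. After Benjamini-Hochberg adjustment over these 5 pairs the values were 0.125 and 0.3, so no ratio passed 0.05. The ratio of COL1A1 to COL1A2 could not be formed.

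**Figure D3:**
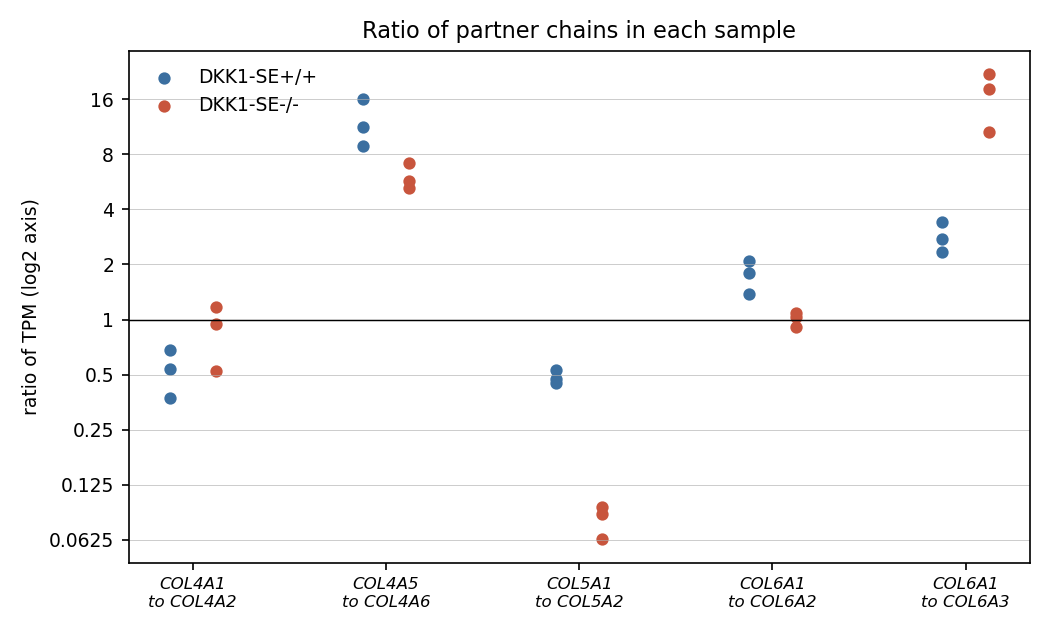
Ratio of TPM of collagen chains that share a trimer, on a log axis, with a point per sample. COL5A1 over COL5A2 falls from 0.45 to 0.527 in the control samples to 0.0626 to 0.0944 in the deletion samples, and COL6A1 over COL6A3 goes the other way.

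Summed over all 44 members, collagen transcripts took 599.7, 664 and 680.2 TPM in the control samples and 480.3, 416 and 479 TPM in the deletion samples. The total was thus lower in every deletion sample, with group means of 648 ± 42.5 and 458 ± 36.8 TPM (SD, n = 3 each). COL18A1 made up 53.7% of the collagen TPM in the control group and 51.3% in the deletion group. Without COL18A1 the sums were 290.4, 301 and 308 TPM in the control samples and 219, 198 and 254 TPM in the deletion samples, which did not overlap, but in counts-per-million these sums overlapped, with a log2 ratio of -0.10. The share of COL1A1 went from 15.2% to 2.66%, that of COL7A1 from 3.49% to 0.487% and that of COL16A1 from 3.28% to 0.945%. In the same groups the share of COL5A2 went from 9.57% to 31.4%. Within the fibrillar class the fall of COL1A1 and COL5A1 and the rise of COL5A2 nearly offset each other in TPM, and the class sums overlapped, at 189, 201 and 204 TPM against 168, 157 and 208 TPM. Without COL5A2 the fibrillar log2 ratio of mean sums went from -0.16 to -2.03, and in counts-per-million with all members it was 0.092.

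The FACIT sum was lower in each deletion sample, at 29.0, 37.0 and 30.5 TPM in the control samples and 15.5, 11.4 and 15.4 TPM in the deletion samples. COL16A1 carried most of that difference, and without it the log2 ratio of the FACIT sums was -0.16. Transmembrane collagens summed to 35.5, 32.0 and 33.3 TPM against 15.5, 11.2 and 14.4 TPM, nearly all from COL13A1, and without it the log2 ratio was 0.084. Basement membrane collagens summed to 5.92, 5.30 and 6.58 TPM against 5.82, 5.19 and 5.06 TPM, with overlapping groups and a log2 ratio of -0.15 that was 0.24 in counts-per-million. Beaded filament collagens summed to 5.03, 6.11 and 8.01 TPM against 11.6, 7.88 and 9.18 TPM, which overlapped through a single pair of samples, but in counts-per-million they did not overlap, with a log2 ratio of 0.75.

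**Figure D4:**
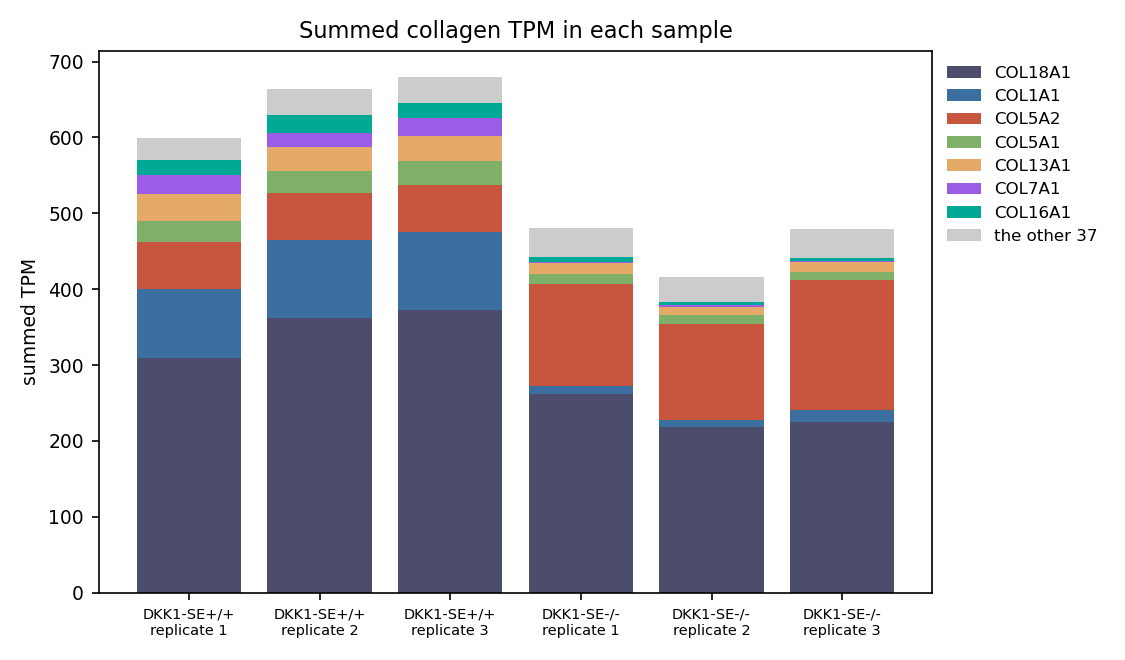
Summed TPM of the collagen genes in each sample, stacked by gene from 0, with the smaller members pooled. The bars of the 3 deletion samples, 416 to 480.3 TPM, are all lower than those of the 3 control samples, 599.7 to 680.2 TPM, and COL5A2 takes the place of COL1A1 as the second largest block.

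The tested collagens lie on many chromosomes, and their changes can be set beside those of their neighbours. The median log2 fold change of the other tested genes within 5 Mb ran from -0.48 to 0.82 around the 28 collagens. For 8 of the 16 called collagens the sign was opposite to that median. On chromosome 21, COL18A1 fell while COL6A1 and COL6A2, starting 468 kb after its end, rose, and the 60 neighbours of this group had a median of 0.13. GC content had a median of 58.6% over the tested collagens and 49.1% over all tested genes. It was 59.9% for the collagens called lower and 54.5% for those called higher.

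**Figure D5:**
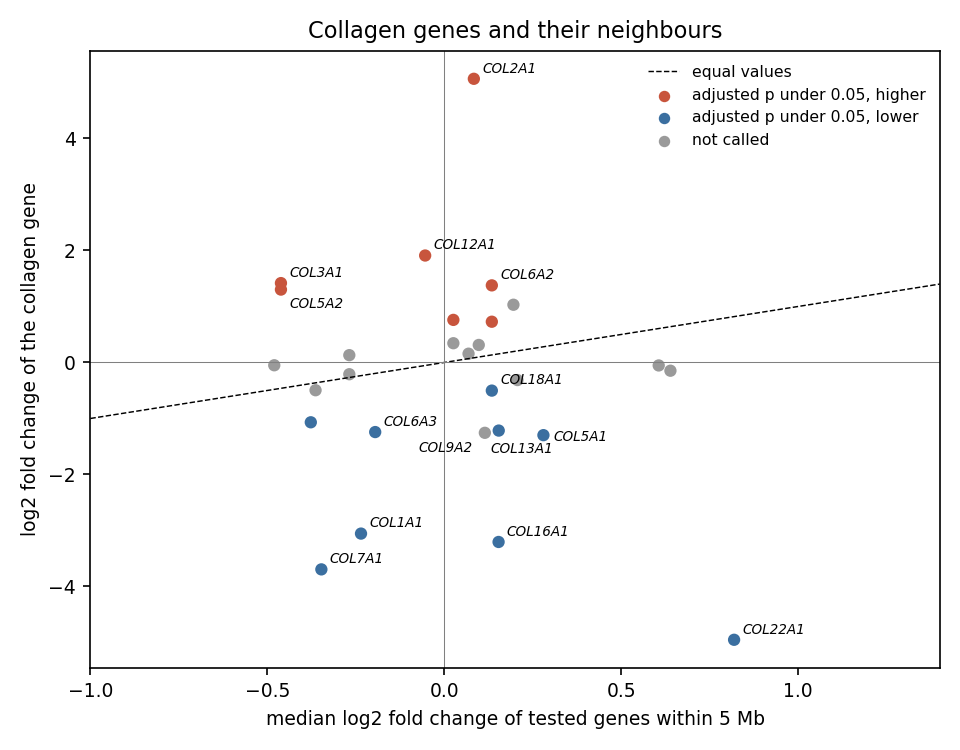
Log2 fold change of each tested collagen gene against the median log2 fold change of the other tested genes within 5 Mb, with a dashed line at equal values. Neighbour medians stay between -0.48 and 0.82 while the collagens span -4.95 to 5.07, and COL22A1 lies opposite to its neighbours.

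Proteins that make, process, bind and degrade collagen were counted from lists by role. Of 64 such genes 52 were tested, with 11 called higher and 18 lower. These are 55.8% of those tested, beside 39.3% of all tested genes, of which 19.8% were higher and 19.5% lower, and the median log2 fold change was -0.17 beside 0.03. ITGA11 passed the minimum on counts only through the deletion samples and MMP14 only through the control samples, so these 2 had to differ in level to be tested in this way. Of the 24 biosynthesis genes, 6 were higher and 8 lower, with a median of 0.01. CREB3L1, a membrane-bound transcription factor of the collagen secretory pathway, went from a mean of 1.00 ± 0.199 to 3.22 ± 0.130 TPM (SD, n = 3 each), with a log2 fold change of 1.91 and an adjusted p of 6.25e-05 in edgeR. FKBP7, a prolyl isomerase of the endoplasmic reticulum, fell by 2.06 on the log2 scale and P3H3, a prolyl 3-hydroxylase family member, by 1.28. SERPINH1, the collagen chaperone HSP47, was not called (log2 fold change 0.054, adjusted p = 0.747), but with the GC-content offset it fell by 0.22 on the log2 scale and was called (adjusted p = 0.0171, and 0.0575 with the replicate block). Of the 10 tested genes for processing and crosslinking, 1 was higher and 4 lower. ADAMTS14, a procollagen N-propeptidase, fell by 2.75 on the log2 scale, from 0.84 ± 0.14 to 0.117 ± 0.0404 TPM. LOX and LOXL2 encode lysyl oxidases that crosslink collagen, and they went opposite ways, with log2 fold changes of 1.24 and -0.59.

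Among the 11 tested collagen receptors, 2 were higher and 4 lower, beside 19.8% and 19.5% of all tested genes. ITGA11, the integrin chain for fibrillar collagen, had 3, 1 and 3 counts in the control samples and 79, 89 and 61 in the deletion samples, with a log2 fold change of 5.08 and an adjusted p of 6.16e-06 in edgeR. DDR2, the discoidin receptor for fibrillar collagens, rose by 1.86 on the log2 scale in counts. In limma its log2 fold change was 0.44 on log2(TPM + 1) and with no minimum, and 0.97 on log2(TPM + 0.1). The adjusted p of these limma fits ran from 0.0512 to 0.199. MRC2, an endocytic receptor for collagen fragments, fell by 0.90. ITGA11 and LOX lost the call in the limma fit with no minimum on values (adjusted p = 0.131 and 0.13). Of the 7 tested genes for collagen degradation, 2 were higher and 2 lower. MMP1, an interstitial collagenase, went from 2.14 ± 0.185 to 30.5 ± 6.02 TPM, with a log2 fold change of 3.97 and an adjusted p of 1.35e-07. MMP14, the membrane-bound collagenase, fell by 3.76 on the log2 scale and MMP2, the gelatinase that MMP14 activates, by 1.01. Without control replicate 2 the number of partner genes called was 18, with 7 higher and 11 lower, and the share of all tested genes called was 25.9% there, 12.9% higher and 13.0% lower.

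Markers of other cells were read because COL1A1 and COL3A1 are also fibroblast markers. Of 9 fibroblast and stellate markers that are not collagens, in 10 rows since RGS5 is listed under 2 identifiers, 3 rows were tested, 0 were called by edgeR and 0 had an unadjusted p under 0.05 in edgeR or DESeq2, and FAP was at 0 in all samples. Their summed TPM was 9.26, 9.38 and 7.16 in the control samples and 5.29, 8.43 and 8.29 in the deletion samples, with RGS5, over its 2 rows, and THY1 the most abundant and DCN, LUM, POSTN and PDGFRA under 1 TPM throughout. Endothelial markers summed to 2.54, 2.57 and 2.12 TPM against 0.44, 0.55 and 0.58 TPM, nearly all KDR, with 1 of 4 tested, which was called lower, and PECAM1, VWF and CDH5 near 0. Immune markers summed to 43.4, 41.1 and 46.5 TPM against 68.3, 64.8 and 67.4 TPM, nearly all CD68, with 1 of 4 tested, which was called higher, and PTPRC and CD3E at or near 0. The 8 epithelial markers, led by KRT8, summed to 1910, 1964 and 2007 TPM against 3217, 3159 and 2728 TPM, with 4 called higher and 2 lower. The 6 mesenchymal markers, led by VIM, summed to 3779, 4243 and 4557 TPM against 2827, 2543 and 2713 TPM, with 1 called higher and 3 lower. These calls of markers stand beside 39.3% of all tested genes called by edgeR, 19.8% higher and 19.5% lower. The epithelial, mesenchymal, KDR and CD68 sums differed between the groups beside the collagen changes, and the part of any of these lists, the fibroblast markers among them, in those changes was not tested.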

How the data were processed

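Messenger RNA of 6 PANC-1 samples was measured by stranded sequencing, 3 of DKK1-SE+/+ and 3 of DKK1-SE-/- cells. The deposited table holds expected counts per gene, estimated and not scaled between libraries, of which 32.3% of nonzero values are not whole (tolerance 1e-06). The deposited TPM columns are transcripts-per-million within each library as the authors computed them. The authors' linear fold change (a ratio), their log2 fold change and their p-value columns, unadjusted and adjusted, were not used. The build is hg38 by the processing notes, and the aligner, counting program and annotation are not given in the sources used here.

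Expected counts were rounded to whole numbers. Genes passing edgeR's filterByExpr (minimum count 10, 0.546 counts-per-million) were scaled by TMM and tested with edgeR 4.0.16 in R 4.3.3 (quasi-likelihood F test, prior count 0.125 for fold changes, common biological coefficient of variation 0.137), with Benjamini-Hochberg adjustment over all 15179 tested genes. Standard errors given with edgeR fold changes were derived as the absolute log2 fold change over the square root of the F statistic. Alternatives used DESeq2 1.42.0, limma 3.58.1, a GC-content offset in 40 bins, other scalings and filters, the replicate number as a block, and each sample left out. The calls were tested on simulated data, where the share of false calls by edgeR came out above the share that the threshold on adjusted p aims at. Exact permutation tests used scipy 1.17.1, with pandas 2.3.3, numpy 2.4.6 and Python 3.11.15. Positions and GC content come from GENCODE 44 on hg38, which placed 62625 of the 62703 listed genes.

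The collagens given in full are those called with a mean of at least 5 TPM in either group or past the study's limits, and others are given by count, range or in a clause. COL11A1, COL4A1, COL4A2, COL4A5 and COL6A1 were given sample by sample after their values were seen. From each partner list the 3 called genes with the largest absolute log2 fold change are named, and SERPINH1 was added after its values were seen. The study names no log2 scale for its fold change limit of 1.2. Reading it on the log2 scale is uncertain, and counts with 1.2 read as a ratio are not given here. Members and lists were chosen with earlier results of these data known.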

Additional observations from a re-analysis of the deposited data

How the results depend on the processing

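Of the 16 called collagens, 10 kept sign and call under all 16 alternative fits, 6 lost the call under some and 0 changed sign. The number called ran from 11 to 18. The 11 came from limma with no minimum on values, where 7.46% of the 31101 genes tested were called. The 18 came from the fit with no minimum on counts, where 21.1% of the 31045 genes tested were called. With the replicate block the number was 16, beside 32.8% of all tested genes, and no called collagen was lost. Deviations of same-numbered samples correlated at -0.12, -0.07 and -0.11 across genes, so no shared deviation was seen. These values cannot show whether same-numbered samples were handled together. The median log2 fold change of all tested genes went from 0.03 to -0.08 on log2(TPM + 1) and to -0.11 on log2(TPM + 0.1). The cause of the shifts below was not tested.

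With limma and no minimum on values, 4 collagens were called higher, and 13 partner genes were called, 3 higher and 10 lower. Of the 31101 genes tested there 7.46% were called, 2.97% higher and 4.49% lower. Past the study's limits were 7 collagens, 1 of them higher, both on log2(TPM + 1) and with no minimum. They stood beside 3.37% of all tested genes and 1.77% of the 31101 genes tested with no minimum. On log2(TPM + 0.1) they were 12, 5 of them higher, beside 8.14% of all tested genes. Partner genes called higher were 7 on log2(TPM + 1) and 7 on log2(TPM + 0.1), beside 9.82% and 9.84% of all tested genes. Leaving out 1 library gave 5 (without deletion replicate 2) to 8 collagens lower past the study's limits, 18 (without control replicate 2) to 34 partner genes called, 7 to 13 higher and 11 to 21 lower, while 25.9% to 48.4% of all tested genes were called.

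In counts-per-million the log2 ratio of sums was -0.30 for all collagens, 0.092 for fibrillar and 0.24 for basement membrane collagens, and COL4A1 over COL4A2 differed by -0.40 (exact permutation p = 0.2). Without the most abundant member the ratio was -2.03 for fibrillar (COL5A2), 0.51 for basement membrane (COL4A5), -0.16 for FACIT (COL16A1) and 0.084 for transmembrane collagens (COL13A1). The COL7A1 ratio ran from -4.01 (without deletion replicate 2) to -3.11 with 1 library left out. Without COL18A1 the ratio for all collagens was -0.10 in counts-per-million. The sums without COL18A1, the ratios of mean TPM and the fits of SERPINH1 were chosen after seeing the data.

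Among collagens, signs turned only in those that were not called. COL27A1 was -0.16, -0.21 and -0.16 in limma (log2(TPM + 1), log2(TPM + 0.1), no minimum), -0.11 with the GC-content offset, -0.10 with block and offset, and -0.21 as a ratio of mean TPM. COL4A6 was -0.0034, -0.0080 and -0.0034 in limma, -0.042 with the offset, -0.087 with block and offset, -0.016 as a ratio of mean TPM, and -0.30 to 0.42 with 1 library left out. COL21A1 was 0.19, 0.21 and 0.19 in limma and 0.57 as a ratio of mean TPM. COL8A2 was -0.051 with the offset, -0.045 with block and offset, and -0.13 to 0.90 with 1 library left out. With 1 library left out COL11A2 ran from -0.53 to 0.073, COL9A3 from -0.32 to 0.13, COL17A1 from -0.29 to 0.090 and COL8A1 from -0.40 to 0.23. SERPINH1 was -0.022 with library size alone, -0.054, -0.054 and -0.054 in limma, -0.22 with the offset, -0.22 with block and offset, and -0.039 to 0.13 with 1 library left out, with adjusted p from 0.0171 to 0.999. Over the 16 alternatives the adjusted p ran from 1.37e-07 to 0.0912 for COL11A1, 1.98e-24 to 0.0739 for COL12A1, 5.52e-06 to 0.0588 for COL18A1, 0.00393 to 0.66 for COL4A2, 6.00e-04 to 0.408 for COL6A1, 4.45e-04 to 0.0529 for COL6A3, 0.0126 to 0.707 for COL4A5, 0.0316 to 0.356 for COL9A2, 6.76e-05 to 0.13 for LOX, 3.61e-28 to 0.131 for ITGA11 and 3.02e-11 to 0.199 for DDR2. Low counts limit COL5A3, COL9A2, COL8A1 and COL8A2.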
